A study of Mus musculus with 8 samples.

Results

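Resident macrophages that express Lyve1, Folr2 or Timd4 were described in single-cell RNA-seq of mouse left ventricle, with 938 cells from the library labelled 0 h and 237 cells from the library labelled 6 h after ischemia reperfusion (IR), 1175 of 20159 barcodes in all. The mice were wild-type male C57BL/6 animals aged 10 to 12 weeks. IR was 30 min of ligation of the left anterior descending coronary artery followed by reperfusion for 6 h. The study names its groups sham and IR, and the 0 h library is called sham here, although the labels do not settle whether a sham operation preceded it by 6 h. Each library combined 4 samples, each made from the left ventricles of 3 hearts, and no barcode names its sample, so there was 1 library per condition. Values for sham and IR are therefore given with 95% intervals that cover counting error only, and no difference between the conditions was tested.

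A barcode was a member when it held at least 200 genes, at most 30% mitochondrial unique molecular identifiers (UMIs, 1 per captured RNA molecule), at least 0.2% of its UMIs from C1qa, C1qb and C1qc together and at least 0.1% from Lyve1, Folr2 and Timd4 together. It was left out at 0.1% or more from Lpl and Gdf15, at 1% or more from the neutrophil genes S100a8 and S100a9, at 0.15% or more from the fibroblast genes Dcn and Col3a1, or with more than 1 UMI of the lymphocyte genes Cd79a and Cd3e. The members were thus chosen by the measured UMI counts of these genes, and the levels of the rule genes are a description. C1q-expressing macrophages that passed every other limit but not the one on Lyve1, Folr2 and Timd4 numbered 2290 in sham and 384 in IR, and are called other C1q macrophages. B cells (1033 in sham and 396 in IR) served as cells that should hold none of the macrophage genes. They were chosen with less than 0.2% of UMIs from C1qa, C1qb and C1qc, which left out barcodes rich in macrophage RNA. Their low levels of macrophage genes are therefore partly set by that limit.

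Tissue macrophages of this kind are seeded in the embryo and renew themselves locally, and in the heart they lie near vessels, clear dying cells and debris and carry little CCR2 or MHC class II. LYVE1 binds hyaluronan, FOLR2 is a folate receptor, TIMD4 binds phosphatidylserine on dying cells, and CD163 takes up haemoglobin bound to haptoglobin. Macrophages that descend from blood monocytes enter the heart through CCR2 and arrive in numbers after infarction.

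The members made up 8.24% (exact binomial interval 7.75 to 8.77) of the sham barcodes that passed the limits on genes and mitochondrial UMIs, and 2.87% (2.52 to 3.25) of those from IR. Among C1q macrophages they were 27.9% (26.3 to 29.4, 938 of 3368 cells) in sham and 22.9% (20.4 to 25.6, 237 of 1034) in IR. Over the same cells, other C1q macrophages took 68.0% in sham and 37.1% in IR, and cells over the Lpl and Gdf15 limit took 4.16% and 39.9%. That limit removed 39 of 977 cells that met the Lyve1, Folr2 and Timd4 threshold in sham (3.99%, 2.85 to 5.42) and 73 of 310 in IR (23.5%, 18.9 to 28.7). With these cells kept in, members reached 29.0% of sham and 30.0% of IR C1q macrophages, so the order of the libraries rests on that limit. The class shares also depend on depth. The median member held 5427.5 UMIs in sham and 11738 in IR, with 1818.5 and 3042 genes found, and the summed members gave 5527689 and 2878312 UMIs. Medians in other C1q macrophages were 4558.5 and 8180.5 UMIs, and in B cells 2236 and 3398. More than 2500 genes were found in 109 sham members (11.6%) and in 187 IR members (78.9%), and whether some of these barcodes hold more than 1 cell was not tested. Of 30 barcode sequences present in both libraries, 4 belonged to a member in at least 1 library and 0 to a member in both.

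**Figure D1:**
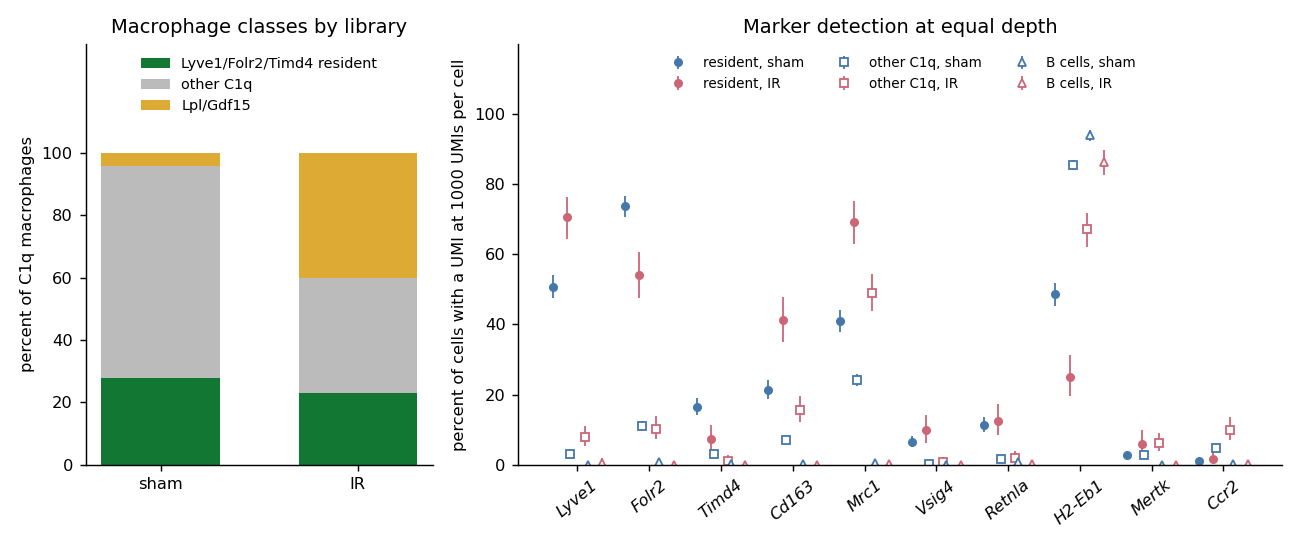
Left, percent of C1q-expressing macrophages in each class, stacked by library (sham, 3368 cells; IR, 1034 cells). Right, percent of cells with at least 1 UMI of each gene after every cell was thinned to 1000 UMIs, in members, other C1q macrophages and B cells of each library, with 95% exact binomial bars. Members stand above other C1q macrophages for Cd163, Mrc1 and Vsig4, and below them for H2-Eb1 and Ccr2.

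Members carried general macrophage genes and less Ccr2 than other C1q macrophages, and Timd4 was the thinnest of Lyve1, Folr2 and Timd4. C1qa, a gene of the rule, stood at 9694 CPM (UMIs of the gene in every 1e+06 UMIs, summed over all members of a library) in sham and 6781 in IR. Outside the rule, Csf1r, the CSF1 receptor, was 938 and 674 CPM. Adgre1, which encodes F4/80, was 325 and 229 CPM, and Cd68 was 506 and 564 CPM. Other C1q macrophages held similar levels. The log2 ratios of members to them were 0.29 and 0.22 for Csf1r, 0.13 and 0.21 for Adgre1, and -0.01 and 0.09 for Cd68. Ccr2 was 17.9 CPM in sham and 33.4 CPM in IR, against 77.3 and 224 CPM in other C1q macrophages and 506 and 984 CPM in monocytes. Ly6c2, a marker of classical monocytes, was 3.80 and 11.8 CPM in members and 7174 and 525 CPM in monocytes, which were chosen by Ly6c2 with Chil3.

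Of Lyve1, Folr2 and Timd4, Folr2 was the most widespread in sham and Lyve1 in IR. With every cell thinned to 1000 UMIs, which left out 10 sham and 2 IR members with fewer, Lyve1 had a UMI in 50.8% (47.5 to 54.0) of sham members and 70.6% (64.4 to 76.4) of IR members. Folr2 had one in 73.7% (70.7 to 76.5) and 54.0% (47.4 to 60.5), and Timd4 in 16.5% (14.2 to 19.0) and 7.23% (4.27 to 11.3). Without thinning the shares were 85.0% and 98.7% for Lyve1, 98.6% and 96.6% for Folr2, and 54.9% and 52.7% for Timd4. In B cells, thinned Lyve1 was found in 0 cells of sham and 0.524% of IR, and Folr2 in 0.786% of sham and 0 of IR. The levels ran the same way: Lyve1 999 CPM in sham and 1658 in IR, Folr2 1532 and 929, Timd4 194 and 101.

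The 3 genes were found in varied combinations at this depth. Of 928 thinned sham members, 72 (7.76%) held all 3 transcripts, 276 (29.7%) held Lyve1 and Folr2 without Timd4, 285 (30.7%) held Folr2 alone and 110 (11.9%) Lyve1 alone. Of 235 thinned IR members, 10 (4.26%) held all 3, 77 (32.8%) Lyve1 and Folr2, 38 (16.2%) Folr2 alone and 76 (32.3%) Lyve1 alone. Timd4 without either other gene was rare, in 17 (1.83%) and 2 (0.851%) cells. At 1000 UMIs 104 (11.2%) and 27 (11.5%) held none of the 3, although every member has at least 1 of them. A transcript missed at this depth gives such combinations too, so they are not read as kinds of cell.

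Cd163, which the rule did not use, stood at 288 CPM in sham and 791 CPM in IR members, against 77.2 and 268 CPM in other C1q macrophages and 0.857 and 2.03 CPM in B cells. The thinned share of members with Cd163 was 21.3% (18.7 to 24.1) in sham and 41.3% (34.9 to 47.9) in IR, against 7.01% and 15.6% in other C1q macrophages. Members thus held more Cd163 than other C1q macrophages in both libraries, and the level was higher in IR in both classes. The cells just outside and just inside the threshold were closer to each other than to the cells far inside it. In sham, the 343 cells just outside (0.05% to 0.1% of UMIs from Lyve1, Folr2 and Timd4) had 141 CPM of Cd163 and 5165 CPM of the MHC class II gene H2-Aa, and the 231 just inside (0.1% to 0.15%) had 210 and 4593 CPM. The 318 sham members at 0.3% or more had 370 CPM of Cd163 and 1374 CPM of H2-Aa. In IR, the 57 cells just outside had 548 CPM of Cd163 and 1517 CPM of H2-Aa, the 56 just inside 590 and 1185 CPM, and the 74 at 0.3% or more 1183 and 331 CPM.

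Vsig4, Ltc4s, Rcn3 and Fcna were furthest above other C1q macrophages in members, ranked by the smaller of the ratios in the 2 libraries. Over 5008 genes with a mean of at least 20 CPM outside the rule genes, 65 (1.3%) were at least 2-fold higher in members in both libraries and 79 (1.58%) at least 2-fold lower, 144 (2.88%) in all. Of the 27 listed resident and scavenger genes, 21 passed the filter on level, which a gene could do through the members alone, and 14 of these were past 2-fold higher and 0 lower. The cells were sorted by 3 of their own genes, and genes that travel with those had to differ, so these ratios are descriptive.

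Vsig4, the complement receptor CRIg of resident macrophages (chrX:96247203-96293438, minus strand, GRCm38), had the largest ratio by that ranking, although Fcna and Ltc4s had larger ones in IR. It stood at 104 CPM in sham and 151 CPM in IR members, and at 4.94 and 16.5 CPM in other C1q macrophages, a log2 ratio of 4.40 (4.00 to 4.81) in sham and 3.19 (2.78 to 3.63) in IR. Its UMIs came from 125 of 938 sham members and 59 of 237 IR members, and the top 5% of cells held 73.6% and 47.5% of them, so Vsig4 marked a minority of the class. Ltc4s, leukotriene C4 synthase, was broader in level, at 583 and 425 CPM against 89.1 and 45.4 CPM (log2 ratio 2.71 and 3.23). The soluble lectin Fcna stood at 161 and 183 CPM against 25.5 and 18.6 CPM (2.66 and 3.30). Colec12, a scavenger receptor with a lectin domain, stood at 66.2 and 97.3 CPM against 8.86 and 22.9 CPM (2.90 and 2.09).

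Carbonyl reductase 2 (Cbr2) was among the more abundant of these genes, at 1275 and 919 CPM in members against 305 and 224 CPM (log2 ratio 2.06 and 2.03). Wfdc17, a small secreted protein, was higher still, at 2954 and 3411 CPM against 733 and 919 CPM (2.01 and 1.89). Fcgrt, the neonatal Fc receptor that recycles IgG, was 777 and 669 CPM against 241 and 198 CPM (1.69 and 1.76). These ratios were alike in sham and IR. The lectin Clec10a kept its ratio (1.65 in sham and 1.64 in IR) while its level was 91.9 CPM in sham and 337 CPM in IR members. Fgfr1, a fibroblast growth factor receptor, was 57.0 and 181 CPM in members against 15.2 and 22.6 CPM (1.91 and 3.0). The other genes named by the same rule were Rcn3 (log2 ratio 2.93 and 2.66), Selenbp1 (1.97 and 2.22), Fxyd2 (1.84 and 2.30), Tns1 (1.71 and 1.85) and Retnla (2.53 and 1.65). Retnla, which encodes the secreted protein RELMα of alternatively activated macrophages, was carried by few cells: 164 sham and 52 IR members, with 89.5% and 65.4% of its UMIs in the top 5%.

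Some resident genes had their excess in sham and less of it in IR. Coagulation factor XIII A (F13a1) stood at 1019 and 2405 CPM in members, with a log2 ratio to other C1q macrophages of 2.37 in sham and 1.31 in IR. Ccl24, an eotaxin, had ratios of 2.34 and 0.86, and the growth factor Igf1 of 1.06 and -0.03. Igf1 itself was 157 CPM in sham and 127 CPM in IR members (log2 IR to sham -0.31), against a log2 of 0.79 between the libraries in other C1q macrophages. Gas6, the bridging ligand of the TAM receptors, kept its ratio (1.56 and 1.61) at 443 and 304 CPM. Differences of this kind between the libraries were not tested, with 1 library each.

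**Figure D2:**
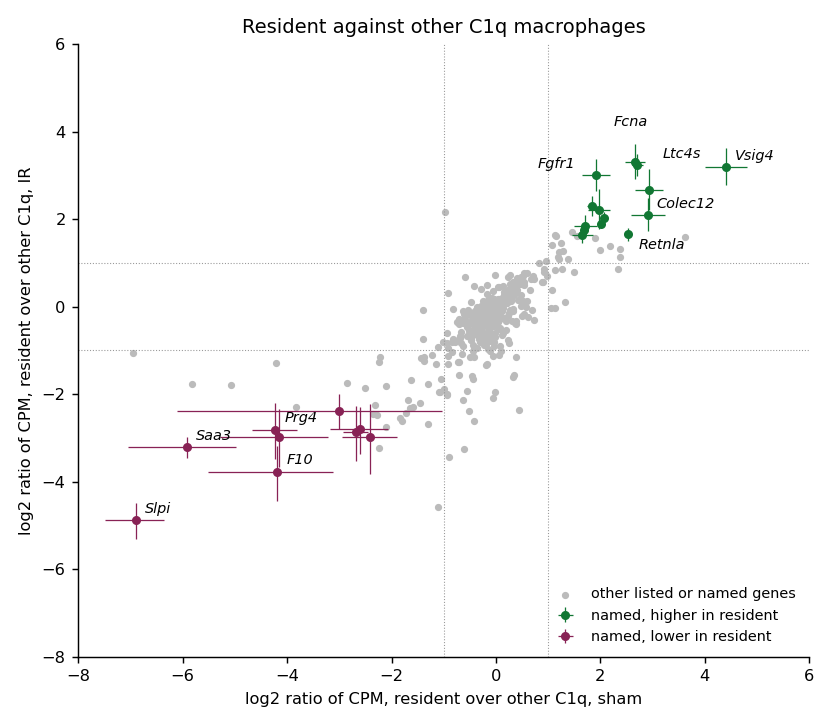
Log2 ratio of the summed CPM of members to that of other C1q macrophages, sham on the x axis and IR on the y axis, with dotted lines at 2-fold. Each point is 1 gene of the gene lists or named by rank, so the points do not show all genes measured. Bars give the 95% counting interval and are drawn only for the genes named by rank in this comparison. Vsig4 lies at the upper right (4.40 in sham and 3.19 in IR) and Slpi at the lower left (-6.89 and -4.89), and Alox15 is not drawn because it had 0 UMIs in IR members.

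Genes of the recruited monocyte list summed to less in members than in other C1q macrophages. The 20 genes of the recruited monocyte list summed to 478 CPM in sham and 954 CPM in IR members, against 1543 and 4056 CPM in other C1q macrophages. Of these genes 14 passed the filter on level in this comparison and 10 in the members alone, so some passed only through the class where they are high, and no count of them is read. The genes that follow were named by their rank below other C1q macrophages, not through that list, and are not read as a measure of recruited monocytes. Slpi, a secreted protease inhibitor, was 5.07 and 18.8 CPM in members against 601 and 555 CPM (log2 ratio -6.89 and -4.89). Alox15, a lipoxygenase of peritoneal macrophages, had 2 UMIs in sham and 0 in IR members, against 1006 and 70 UMIs in other C1q macrophages (log2 ratio in sham -7.89, interval -10.94 to -6.03). F10 (-4.19 and -3.77), Saa3 (-5.91 and -3.22), Serpinb2 (-4.15 and -2.97), Prg4 (-4.23 and -2.81) and Vcan (-3.0 and -2.39) were low in the same way. These 7 genes measure a small subset on the other side of the comparison, since in sham they were found in only 16 (Vcan) to 82 (Slpi) of 2290 other C1q macrophages. With the Lyve1, Folr2 and Timd4 threshold at 0.05%, the ratios of Alox15, Prg4, Saa3 and Serpinb2 had opposite signs in the libraries. Gngt2 (-2.69 and -2.86), found in 863 of those 2290 cells, Napsa (-2.60 and -2.80) and the cell division gene Ube2c (-2.41 and -2.98, in 66 cells) completed the set.

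MHC class II was lower in members than in other C1q macrophages in both libraries, and its level varied widely among the members. H2-Aa, the alpha chain of I-A, was 2836 CPM in sham and 656 CPM in IR members, with log2 ratios to other C1q macrophages of -1.58 and -2.30. H2-Eb1 had ratios of -1.80 and -2.61, and the invariant chain Cd74 (8132 and 2255 CPM) of -1.45 and -2.19. Of 8 measured genes of the class II list, which also holds the costimulatory genes Cd86 and Cd40, 5 were past 2-fold lower in both libraries. Over all genes the share was 1.58%. Per member, the class II list took a median of 0.599% of UMIs in sham (quartiles 0.0980% and 3.23%, highest 10.8%) and 0.0983% in IR (0.0462% and 0.568%, highest 5.52%). The sham cells were therefore spread over a wide range rather than uniformly low.

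Members with an H2-Eb1 UMI at 1000 UMIs (451 of 928 in sham and 59 of 235 in IR) were compared with those without. Vsig4 was lower in the cells with H2-Eb1 by log2 -1.45 (-1.73 to -1.17) in sham and -2.85 (-3.70 to -2.11) in IR, Fcna by -1.07 and -1.24, and Ltc4s by -0.78 and -1.13. Of other resident genes, some followed in IR and some did not. Rcn3 was lower in the IR cells with H2-Eb1 by -0.82 (-1.40 to -0.28) and Colec12 by -0.63 (-1.15 to -0.15). The rule genes Lyve1 (-0.50) and Folr2 (-0.55) were lower there too. Cd163 was 250 CPM with and 323 CPM without H2-Eb1 in sham, but 792 CPM on both sides in IR. Timd4 was 172 and 213 CPM in sham and close to 101.5 CPM on both sides in IR, and Igf1 had a log2 ratio of -0.62 in sham and 0.74 (0.40 to 1.07) in IR. Clec10a had ratios of 0.03 and 0.38. Ccr2 had a ratio of 1.66 (0.99 to 2.36) in sham and 0.60 (-0.10 to 1.26) in IR. Members with a Timd4 UMI (153 in sham and 17 in IR) had less H2-Aa than those without (-0.61 and -1.17) and more Ltc4s (0.61 and 0.69), while Vsig4 differed by 0.73 and 0.19 (-0.34 to 0.69 in IR). Timd4 is a gene of the rule, so its split is only a description. Deeper cells give more of every transcript, so the cells were thinned before they were split, and the splits compare cells of 1 library, not animals.

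**Figure D3:**
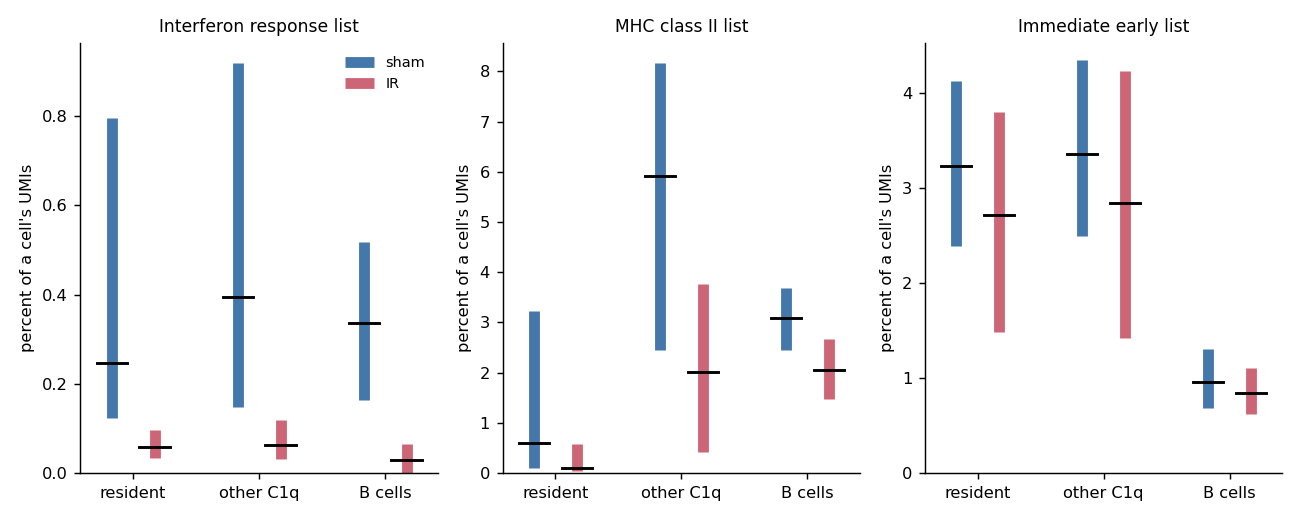
Percent of each cell's UMIs from the interferon, MHC class II and immediate early gene lists in members, other C1q macrophages and B cells of each library, as medians with quartile bars. The member median for interferon genes was 0.247% in sham and 0.0592% in IR, and for MHC class II genes 0.599% and 0.0983%, while the immediate early medians were 3.23% and 2.72%.

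Between the libraries, members from IR had lower interferon-stimulated and antigen presentation genes, while the lists of haem and oxidant handling, scavenger and inflammatory genes were divided or partly higher. Over 5027 genes with a mean of at least 20 CPM, 383 (7.62%) were at least 2-fold higher in IR and 251 (4.99%) at least 2-fold lower, 634 (12.6%) in all. The median log2 ratio over all of these genes was 0.13. With the ratios centred on that median, the counts were 269 higher and 322 lower, so the share higher among the genes past 2-fold moved from 60.4% to 45.5%, and the balance of directions is not read. The lists below are set against this median of 0.13. The filter on level is a mean over both libraries, so a gene present in only 1 of them can pass, and had then to differ.

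Interferon-stimulated genes were lower in IR members almost without exception. Of 24 measured genes of the list, 21 were at least 2-fold lower and 0 higher, with a median of -2.20, against a median of -1.86 in other C1q macrophages. Isg15, a ubiquitin-like modifier, was 490 CPM in sham and 57.0 CPM in IR (log2 -3.11, interval -3.34 to -2.88), and was found in 522 of 938 and 52 of 237 cells. Thinned to 1000 UMIs, its share was 28.2% in sham and 4.26% in IR. Bst2, which tethers budding virus, was 1615 and 212 CPM (-2.93) and was found in 858 sham and 184 IR members.

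The RNA-binding antiviral gene Ifit2 was 70.0 and 2.78 CPM (-4.65), Ifit3 224 and 17.4 CPM (-3.69), and the transcription factor Irf7 288 and 26.1 CPM (-3.47). The GTPase gene Iigp1 was 51.0 and 4.86 CPM (-3.39). Ifit3b had 287 UMIs in sham and 3 in IR (-5.64, interval -7.92 to -4.08), and since it is a near copy of Ifit3 the counts of both are uncertain. The 3 measured genes that did not pass 2-fold were Oasl1 (-0.78), Irf9 (-0.69) and Ifih1 (-0.59). Interferon beta itself (Ifnb1) was found in few members, with UMIs in 17 sham and 3 IR cells. It was higher in other C1q macrophages, with log2 ratios of members to them of -2.51 in sham and -1.86 in IR.

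Lower interferon genes were not a property of members alone. In other C1q macrophages the log2 ratio of IR to sham was -2.54 for Isg15, -3.08 for Bst2 and -2.89 for Irf7, and in B cells it was -5.22, -3.68 and -3.60. Rsad2, which encodes viperin, was -1.49 in members, 0.01 in other C1q macrophages and -3.55 in B cells, and Ifit1 was -2.85, -0.91 and -4.71. Whether the library, the operation or the time of reperfusion sets this difference cannot be told apart.

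The promoters of these genes are shown for a sequence feature that was more frequent in the list than in all windows, although most windows of the list lacked it. The list was chosen as interferon-stimulated genes, so this frequency describes the list and not the members. The motif searched was the core of the interferon-stimulated response element, GAAA followed by any 2 bases and a further GAAA, or on the other strand TTTC, any 2 bases and TTTC, in the 250 bases before each annotated start in RefSeq promoter windows of GRCm38.p6. It was present in 11 of 30 windows of the interferon list (36.7%), 978 of 32851 of all windows (2.98%), 151 of 5093 windows of the genes measured here (2.96%), and 26 of 229 windows of genes at least 2-fold lower in IR members outside the list (11.4%). The 50 bases around the first match follow, 5′ to 3′ on the strand of the gene, with every match within them in capitals, and overlapping matches run together.
Isg15, chr4:156200867-156200916, minus strand: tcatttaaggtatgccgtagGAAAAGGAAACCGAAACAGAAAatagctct
Bst2, chr8:71537573-71537622, minus strand: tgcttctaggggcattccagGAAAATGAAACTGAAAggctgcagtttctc
Ifit1, chr19:34640765-34640814, plus strand: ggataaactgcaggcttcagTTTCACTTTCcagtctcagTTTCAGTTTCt
Ifit3, chr19:34583353-34583402, plus strand: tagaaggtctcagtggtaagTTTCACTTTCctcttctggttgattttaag
Ifit3b, chr19:34607749-34607798, plus strand: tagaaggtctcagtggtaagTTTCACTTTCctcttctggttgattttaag
All 5 lie upstream of the annotated start. The first match began 78 bases before the start in Isg15, 130 in Bst2, 104 in Ifit1, 156 in Ifit3 and 188 in Ifit3b, and the printed bases of Ifit3 and Ifit3b are identical. Ifit3 and Ifit3b each had a further match outside the printed bases. In the windows of Ifit2 and Irf7 the letters were not found. A match is a run of letters, and no binding was measured.

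Antigen presentation genes were also lower in IR members. Of 8 measured genes of the class II list 6 were at least 2-fold lower and 0 higher, with a median of -2.05 in members and -1.20 in other C1q macrophages. H2-DMb1, which helps load peptide, had a log2 ratio of -2.68, H2-Aa of -2.11 and Cd74 of -1.85. The costimulatory genes of the list did not pass 2-fold (Cd86 0.82 and Cd40 0.60). In B cells the class II genes past 2-fold in members had ratios between -0.80 and -0.36. Of 12 class I genes 9 were at least 2-fold lower and 0 higher, with a median of -1.45 in members and -1.49 in other C1q macrophages. The immunoproteasome gene Psmb9 had a ratio of -2.22, the transporter Tap1 of -1.92 and H2-K1 of -1.29, while B2m, the shared light chain, was at -0.67. Class I heavy chain genes are near copies of each other, so the split of reads to H2-K1 is uncertain.

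Some genes of haem and oxidant handling were higher in IR members. Of 22 measured genes of this list 8 were at least 2-fold higher, 0 lower and 14 did not pass, with a median of 0.59 in members and 0.70 in other C1q macrophages. Per cell the list took a median of 2.33% of a member's UMIs in sham and 2.45% in IR. Hmox1, haem oxygenase, was 372 CPM in sham and 1948 CPM in IR (log2 2.39, interval 2.32 to 2.46), with UMIs in 659 and 220 members, and its thinned share was 25.3% and 49.8%. The ratio was 2.44 in other C1q macrophages, and in B cells, which should lack the gene, Hmox1 was 3.71 and 19.0 CPM (2.35). Glutathione reductase (Gsr) was 16.1 and 94.5 CPM (2.55), and Gclm, a subunit of the enzyme that starts glutathione synthesis, 28.8 and 106 CPM (1.89). The iron exporter Slc40a1 had a ratio of 1.21 and the haem transporter Slc48a1 of 1.24, and the abundant ferritin chains Fth1 and Ftl1 of 0.57 and 0.13.

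The scavenger genes of the resident list divided between the libraries. Of 21 measured genes 5 were at least 2-fold higher in IR and 2 lower, with a median of 0.15. The mannose receptor Mrc1 was 564 and 1677 CPM (log2 1.57, against 1.62 in other C1q macrophages), with thinned shares of 40.9% and 69.4%. The class A scavenger receptor Msr1 was 110 and 418 CPM (1.93), and Cd163, Clec10a (1.88) and F13a1 (1.24) were the other higher genes. Siglec1, the sialic acid receptor CD169, was 75.8 and 25.7 CPM (-1.56) and Igfbp4 240 and 94.5 CPM (-1.35). The resident markers Vsig4 (0.54), Fcna (0.19), Ltc4s (-0.45), Cbr2 (-0.47) and Pf4 (-0.17) did not pass 2-fold. Across cells, the list took a median of 1.30% of a member's UMIs in sham and 1.53% in IR, against 0.470% and 0.583% in other C1q macrophages.

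Engulfment genes passed 2-fold about as often as all genes (12.6%). Of 14 measured genes 0 were at least 2-fold higher and 2 were lower: the TAM receptor Axl (117 and 42.7 CPM, log2 -1.45, against -0.60 in other C1q macrophages) and the cholesterol exporter Abca1 (193 and 47.2 CPM, -2.03, against -0.87). The TAM receptor gene Mertk was 40.9 and 59.8 CPM (0.55, interval 0.25 to 0.84) and was seen in 2.69% and 5.96% of thinned members. In other C1q macrophages it was seen in 2.86% and 6.20%. The log2 ratio of members to them was 0.49 in sham and 0.07 in IR, so Mertk did not set members apart. The mitochondrial carrier gene Ucp2 was 601 and 1034 CPM (0.78), and the scavenger receptor Stab1 456 and 484 CPM (0.09).

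**Figure D4:**
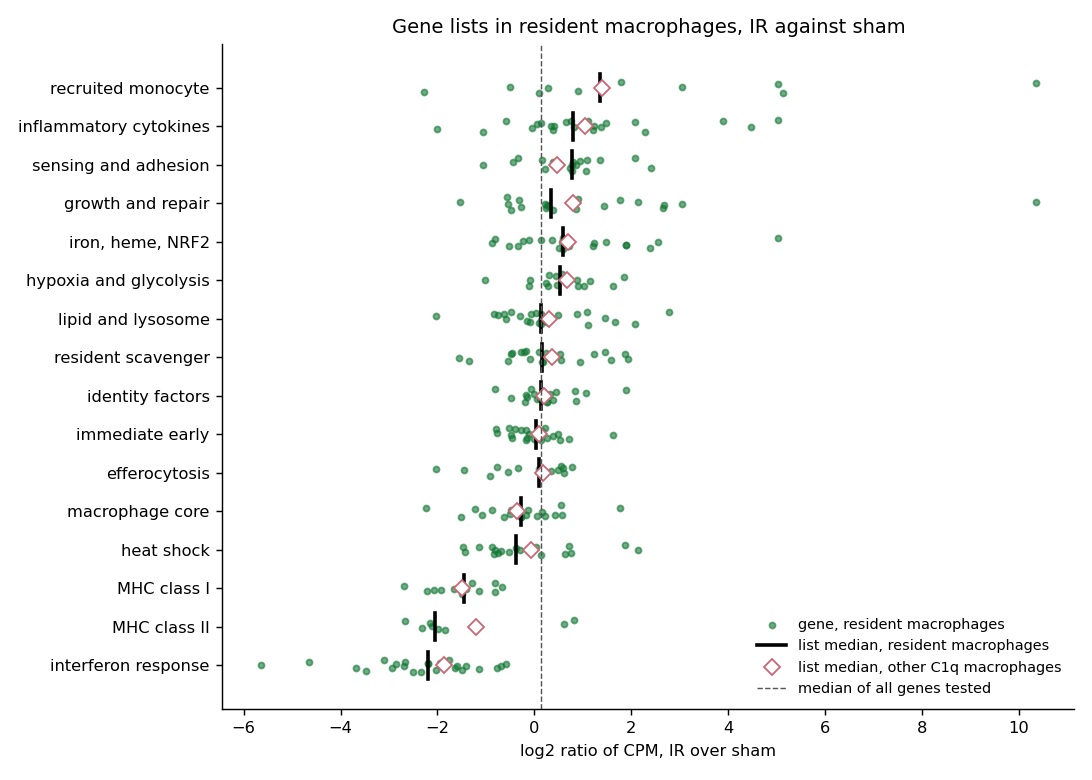
Log2 ratio of IR to sham in members for each measured gene of 16 gene lists, 1 point per gene, with a black bar at the list median, a diamond at the median in other C1q macrophages and a dashed line at the median of all genes (0.13). The interferon (-2.20), MHC class II (-2.05) and MHC class I (-1.45) medians lie farthest below the line, and the recruited monocyte median (1.34) farthest above it. Some recruited monocyte genes passed the filter on level only through IR, so that median is not read.

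Inflammatory cytokine genes were mixed. Of 22 measured genes 10 were at least 2-fold higher in IR and 2 lower, with a median of 0.79 in members and 1.04 in other C1q macrophages. The monocyte chemoattractants Ccl2 (1807 and 5051 CPM, log2 1.48) and Ccl7 (1122 and 2924 CPM, 1.38) were abundant in both libraries, and Tnf was 166 and 358 CPM (1.11). The IL-1 receptor antagonist gene Il1rn had a ratio of 2.28 and oncostatin M (Osm) of 2.07. Cxcl3, a neutrophil chemoattractant, had 61 UMIs in sham and 474 in IR (3.90), and its ratio was 5.78 in other C1q macrophages and 6.96 in B cells. Ccl8 went the other way, at 193 and 47.9 CPM (-2.01, against 0.02 in other C1q macrophages), but 89.5% of its sham UMIs lay in the top 5% of cells.

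The immediate early genes, which answer the stress of tissue digestion as well as signals in the tissue, differed little. Of 24 measured genes 1 was at least 2-fold higher and 0 lower, with a median of 0.03. Fos had a log2 ratio of -0.76, Egr1 of -0.40 and Jun of 0.15. Atf3, a stress-induced transcription factor, was 905 and 1183 CPM (0.39). The list still took a median of 3.23% of a member's UMIs in sham and 2.72% in IR.

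The genes with the largest ratios of IR to sham differed in how evenly the IR members carried them, measured as the share of a gene's UMIs in the 5% of cells with most of it. Fkbp5, a co-chaperone and standard target of the glucocorticoid receptor, was the most even: 9.77 and 187 CPM (log2 4.26, interval 3.85 to 4.69), with UMIs in 50 of 938 sham and 184 of 237 IR members and 19.1% of its IR UMIs in the top 5% of cells. Its thinned share was 0.862% in sham and 14.9% in IR, and its ratio was 3.58 in other C1q macrophages and 1.74 in B cells. The glucocorticoid and clock list as a whole had 1 of 7 measured genes past 2-fold higher, Fkbp5 itself, and a median of -0.06. The metalloprotease gene Adam8 was 3.98 and 131 CPM (5.04) in 76 IR members, and Ttc39c 1.09 and 64.3 CPM (5.89) in 75, with 41.8% and 40% of UMIs in the top 5%. Amica1 (3.80, in 70 cells), which encodes a junctional adhesion protein, and the elongation factor gene Ell2 (3.07, in 68 cells) had 37.4% and 41.2% there.

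The other named genes had most of their UMIs in few cells, although some were found in as many cells as those above. Chil3, a chitinase-like protein of monocytes and alternatively activated macrophages, had 1 UMI in sham and 677 in IR members (log2 10.34, interval 7.86 to 15.65), in 44 cells, with 95.3% of the UMIs in the top 5%. Saa3, an acute phase protein, had 9 and 164 UMIs (5.13) in 23 IR cells with 93.3% in the top 5%, and haptoglobin (Hp) 7 and 118 UMIs (5.02) in 23 cells with 90.7%. Il1a had 29 and 335 UMIs (4.47) with 88.1% in the top 5%, and the cystine transporter gene Slc7a11 9 and 129 UMIs (4.78) with 84.5%. The neutrophil chemoattractant Cxcl5 had 0 UMIs in sham and 165 in IR, at least 106-fold higher against a floor of 3 UMIs over all sham members, with 81.2% in the top 5%. The prostaglandin synthase gene Ptgs2 had 19 and 323 UMIs (5.03) in 63 IR cells with 76.2%. The matrix protein gene Thbs1 had 89 and 383 UMIs (3.05) in 81 cells with 79.1%, and Cxcl3 was found in 97 cells with 78.1%.

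The recruited monocyte list includes Chil3, Saa3, Hp and Thbs1: 5 of its 10 measured genes were at least 2-fold higher in IR and 1 lower, with a median of 1.34. Over all genes 7.62% were higher and 4.99% lower. Chil3, Saa3 and Hp passed the filter on level only through IR and had to differ, so this count and median are not read. Per member the list took a median of 0.0269% of UMIs in sham and 0.0274% in IR. The highest values were 1.06% and 1.98%, far above the median. Without the 5% of members with the most UMIs from that list in each library, the ratio of Chil3 was 6.25, of Saa3 2.83, of Hp 2.75 and of Thbs1 1.73, and the list median was -0.39. The summed neutrophil markers were 62.4 CPM in sham and 547 CPM in IR members over 9 genes, with Mmp8 at 0 in sham and Ngp at 0 in IR, and 109 and 687 CPM in other C1q macrophages. In B cells, which had no limit on S100a8 and S100a9, these markers summed to 314 and 1135 CPM. The part of monocyte and neutrophil RNA in these genes was not tested.

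**Figure D5:**
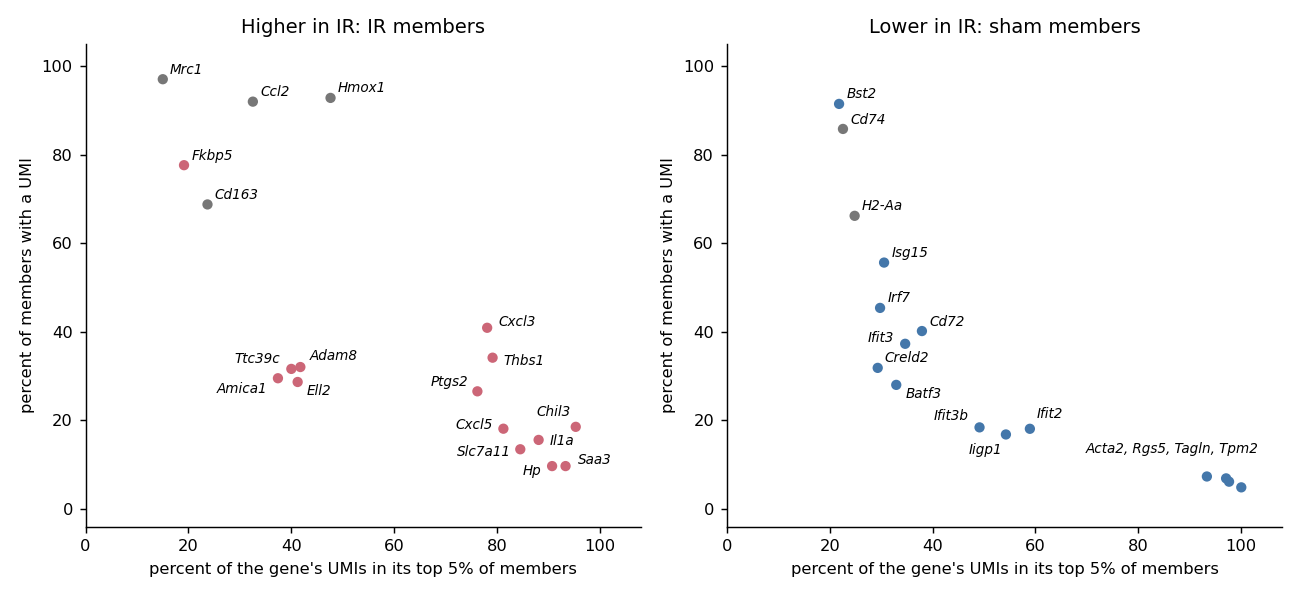
For each named gene, the percent of its UMIs held by the 5% of members with most of them (x axis) against the percent of members with a UMI (y axis), for genes higher in IR in IR members (left) and genes lower in IR in sham members (right), with abundant genes in grey for scale. Chil3 (95.3%), Saa3 (93.3%) and Hp (90.7%) lie at the right edge on the left and Tagln and Rgs5 on the right, while Fkbp5 (19.1%) and Bst2 lie at the upper left.

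Among the lowest genes, smooth muscle and pericyte genes were also held by few cells: Tagln 78.0 and 3.82 CPM (log2 -4.35), Rgs5 83.8 and 4.52 CPM (-4.21), Acta2 110 and 6.60 CPM (-4.06) and Tpm2 59.5 and 6.60 CPM (-3.17). They were found in 46 to 69 of 938 sham members, and the top 5% of cells held 93.3% to 100% of their UMIs. The 7 mural markers summed to 351 CPM in sham and 17.4 CPM in IR members, with Kcnj8 at 0 in IR, and to 395 and 35.4 CPM in other C1q macrophages. A single sham member reached 5.47% of its UMIs from them, while the quartiles were 0. Without the 5% of members with the most mural UMIs the ratio was -1.41 for Tagln, -1.67 for Rgs5, -0.98 for Acta2 and -0.77 for Tpm2, and their part in any other gene was not tested. The B cell inhibitory receptor gene Cd72, also used by macrophages, was 187 and 20.2 CPM (-3.22), the dendritic cell transcription factor Batf3 62.1 and 6.95 CPM (-3.16), and Creld2, an endoplasmic reticulum stress gene, 74.0 and 8.34 CPM (-3.15, against -1.12 in other C1q macrophages).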

How the data were processed

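Droplet 3′ single-cell libraries from left ventricle were sequenced and aligned to mm10 by the authors with Cell Ranger (version 3.1.0 in the matrix headers). The deposited values are raw UMI counts per gene (27998 genes listed) and barcode. Each condition was 1 matrix of 4 pooled samples, with 58653308 UMIs in sham and 75033226 in IR. The members and the gene lists were chosen with earlier results of these data known. UMI counts were summed over the cells of a class, divided by the class total and multiplied by 1e+06 (CPM). Ratios carry exact conditional Poisson intervals and shares exact Clopper-Pearson intervals, both for counting error only. Genes needed a mean of 20 CPM, and a fold of 2 was the threshold. Shares with a UMI used 1 random thinning to 1000 UMIs (seed 7). Monocytes were barcodes with Lyz2 at 0.3% or more and Ly6c2 with Chil3 at 0.1% or more of UMIs, and B cells those with Cd79a and Cd79b at 0.3% or more. Both classes also had less than 0.2% of UMIs from C1qa, C1qb and C1qc. Monocytes met the members' limits on neutrophil, fibroblast and lymphocyte genes, and B cells held no Cd3e UMI.

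Genes were named by rank: the 14 highest and 10 lowest against other C1q macrophages, by the smaller of the 2 within-library ratios, the 14 highest and 14 lowest of IR against sham, and the extremes and defining genes of each list. Mitochondrial, ribosomal protein and hemoglobin genes were left out. Symbols present in more than 1 row (56) were summed only for the limits that chose the cells. Levels and ratios used single rows, the first row for a listed gene. No doublet caller was run. Dropping the 10% of members with most UMIs of other cell types was tried as an alternative, as were other gates and filters. The scripts were tested on simulated counts and ran under Python (3.11.15) and the packages scipy (1.17.1), numpy (2.4.6), matplotlib (3.10.9) and pandas (2.3.3).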

Additional observations from a re-analysis of the deposited data

How the results depend on the processing

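No paired analysis was possible because the barcodes do not name the samples that carry the replicate numbers, and for the same reason no sample could be left out. With the threshold on Lyve1, Folr2 and Timd4 at 0.05% the members' share of C1q macrophages was 38.0% in sham and 28.4% in IR, and at 0.2% it was 15.5% and 12.6%. With at most 2500 genes the IR share was 11.2%, without the Lpl and Gdf15 limit it was 30.0%, and with cells thinned before the gate the sham share was 33.6%. Genes lower in members than in other C1q macrophages numbered 48 at 0.05% and 37 with the thinned gate. A mean of at least 50 CPM left 177 genes higher and 150 lower in IR, and 43 higher and 46 lower in members. With no filter but 3 UMIs these counts were 1045, 781, 118 and 182. A value of 0 stands for opposite signs in the libraries: at 0.05% for Alox15, Prg4, Saa3 and Serpinb2, at 2500 genes for Serpinb2, Slpi and Ube2c, and in the thinned gate for Prg4 and Vcan. The ratio of IR to sham changed sign for Saa3 at 0.05% (-0.39), and the recruited monocyte median did so at 2500 genes (-0.54), in the thinned gate (-0.34) and without the 5% of members with most of those genes (-0.39, chosen after seeing the data). The causes were not tested. Of the 634 genes past 2-fold between IR and sham, 408 were also past it with at most 2500 genes, and 583 without the 5% of members with most recruited monocyte genes. The interferon median stayed between -2.41 and -1.53 and the MHC class II median between -2.40 and -1.38 over these alternatives.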

Other observations

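Single genes of the lipid, glycolysis and growth factor lists passed 2-fold between the libraries in members. Over all 5027 genes 7.62% were higher in IR and 4.99% lower, the reference for these lists and for the heat shock genes below. Of 26 measured lipid and lysosome genes 6 were at least 2-fold higher in IR and 1 lower. The median log2 ratio was 0.13, the same as over all genes, and 0.31 in other C1q macrophages. The lipid droplet gene Plin2 was 220 CPM in sham and 927 CPM in IR (log2 2.08), cholesterol 25-hydroxylase (Ch25h) 23.2 and 158 CPM (2.77), and the fatty acid and lipoprotein receptor Cd36 176 and 560 CPM (1.67). Apoe, the most abundant of them, was lower, with a ratio of -0.49. Of 16 hypoxia and glycolysis genes 4 were at least 2-fold higher and 1 lower, with a median of 0.53 in members and 0.67 in other C1q macrophages. The ratios were 1.86 for the glucose transporter Slc2a1, 1.62 for the lactate exporter Slc16a3 and 1.14 for the pyruvate kinase gene Pkm. Of 20 measured growth and repair genes 7 were at least 2-fold higher and 1 lower, with a median of 0.33 in members and 0.79 in other C1q macrophages. The EGF receptor ligands Hbegf (13.4 and 85.1 CPM, 2.67) and Areg (29.8 and 132 CPM, 2.14) were higher, and Plaur, the urokinase receptor, was 40.3 and 255 CPM (2.66). Retnla was the lower gene (-1.54), and Gas6 (-0.54) and Igf1 (-0.31) did not pass.

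Heat shock genes divided. Of 19 measured, 2 were at least 2-fold higher and 3 lower, with a median of -0.39 in members and -0.07 in other C1q macrophages. The higher genes were Hspa1a (424 and 1873 CPM, log2 2.14) and its near copy Hspa1b (1.86), between which reads may be split. The co-chaperones Stip1 (-1.48) and Fkbp4 (-1.44) were among the lower genes. Vsig4 was examined after its values were seen. Members with a Vsig4 UMI (60 of 928 in sham and 23 of 235 in IR, at 1000 UMIs) had less H2-Aa than those without, by log2 -2.21 in sham and -3.16 in IR. They had more Ltc4s (1.26 and 0.70) and, in sham, 740 CPM of Ccl8 against 149 CPM (2.31, and 0.21 in IR). Nr1d1, a clock repressor below the filter on level, was 2.53 CPM in sham and 28.1 CPM in IR, with UMIs in 14 and 49 members.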
